A study of Rattus norvegicus with 6 samples.

Results

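The phase II conjugation enzymes of rat liver were described here. They are the UDP-glucuronosyltransferases (Ugt1 and Ugt2), the sulfotransferases (Sult), the glutathione transferases (Gst) and the microsomal glutathione transferases (Mgst). They were taken by name, as every non-control probe whose RefSeq accession belongs to a gene symbol beginning with Ugt1, Ugt2, Sult, Mgst, Gsta, Gstk, Gstm, Gsto, Gstp, Gstt or Gstz. This gave 81 of 61657 probes and 52 of 15284 named genes. RNA came from the livers of 9-week-old male Crl:CD(SD) Sprague-Dawley rats, an outbred stock, all of which had received corn oil at 5 mL/kg/day. Before killing, 3 rats were anaesthetised with CO2/O2, a gas mixture that renders rodents unconscious, and 3 with isoflurane, an inhaled anaesthetic. Each rat had 1 single-colour array. The labels give both 3 days and 9 weeks for the corn oil, and rats without anaesthesia were not analysed here, so which agent a difference belongs to cannot be told apart.

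Phase II enzymes attach a polar group to drugs, hormones, bilirubin and bile acids so that they can leave the body in bile or urine. Ugt enzymes transfer glucuronic acid from UDP-glucuronic acid, Sult enzymes transfer sulfate from PAPS, and Gst enzymes add glutathione to electrophiles. The liver is a major site of all these reactions, and many of the genes lie in clusters of close paralogs.

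Levels below are log2 signals relative to the 75th percentile of the same array, so 0 is that percentile and 1 unit is a factor of 2. A probe's brightness also depends on its sequence, so levels of different probes are not ranked against each other. Between 53.4% and 62.3% of all probes were well above background per array, with a 75th percentile of 912.5 to 998.3 in signal, and correlations between arrays over all probes were 0.978 to 0.991. All 9 hepatocyte markers, Alb among them, were detected and tested, with a median difference of 0.03. All 6 arrays lay on 1 slide: the CO2/O2 rats 1 to 3 and isoflurane rat 1 in row 1, and isoflurane rats 2 and 3 in row 2.

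Most of these enzymes were well measured. Of 52 genes, 43 had a probe well above background on all 6 arrays, 5 on some arrays and 4 on none. The 4 were Gstt4, Sult1d1, Sult6b1 and the olfactory enzyme Ugt2a1. Of the 81 probes, 58 exceeded the 75th percentile on every array. All 6 Gsta genes, all 8 Gstm genes, all 4 Ugt1 genes and all 3 Mgst genes were above background throughout, against 7 of 9 Ugt2 genes, 8 of 13 Sult genes and 7 of 9 in the remaining Gst classes.

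**Figure D1:**
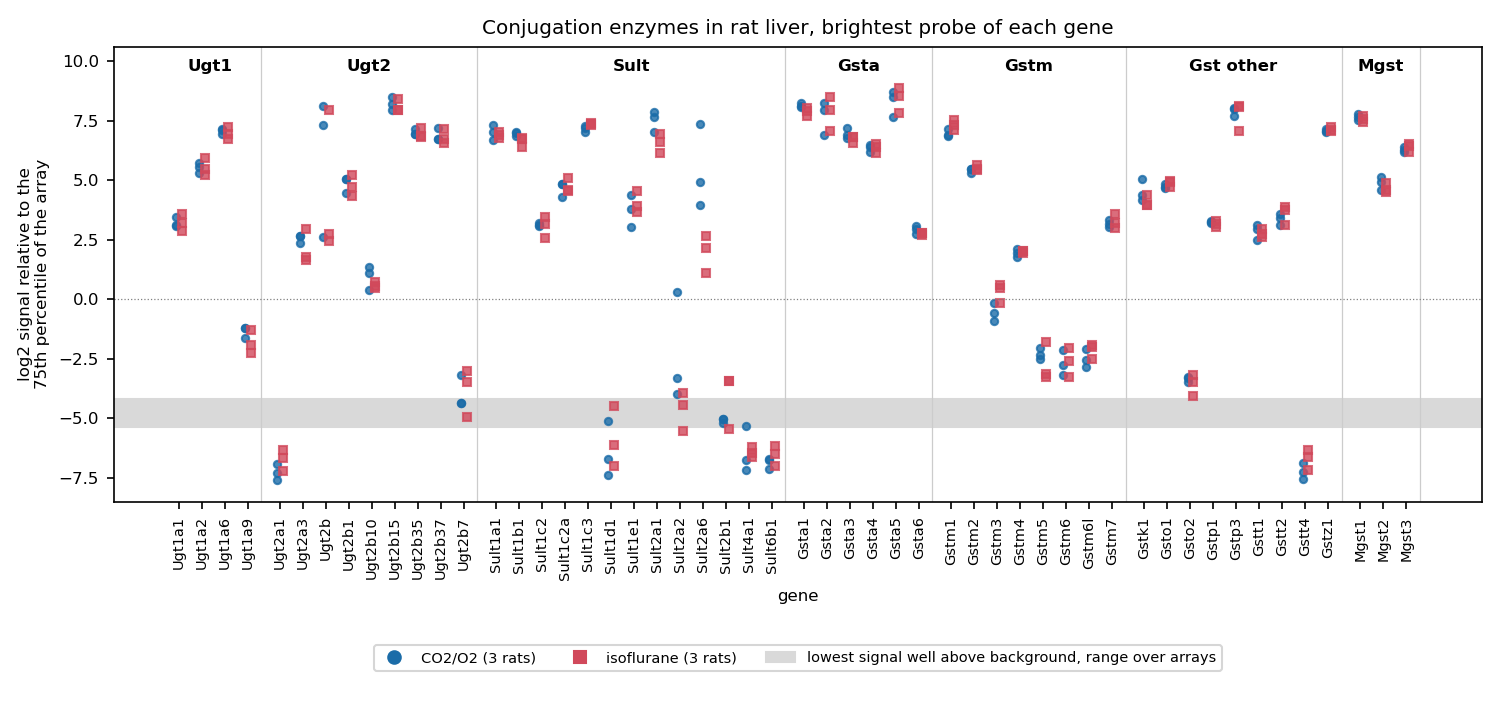
Log2 signal relative to the 75th percentile of the array (vertical axis) for the brightest probe of each of the 52 genes, by family, with 1 point per rat (circles CO2/O2, squares isoflurane). The grey band spans the lowest signal well above background on the 6 arrays, and Ugt2b, Sult2a2 and Sult2a6 show the widest spread between rats.

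After isoflurane compared with CO2/O2, no conjugation enzyme passed the test. By limma, 0 of the 45 tested members passed an adjusted p of 0.05, against 0% of all 10609 genes and 0.00866% of all probes. At an unadjusted p under 0.05 there were 5 of 45, or 11.1%, against a background of 7.58% of all genes. Sult2a6, Sult2a1 and Sult1b1 were the 3 lower and Gstm3 and Gstm1 the 2 higher. In 6 of 45 members (13.3%) the groups were free of overlap, near the background of 14.2% of all genes. The median difference was -0.08 log2 units over the members and -0.01 over all genes, with 28 members lower and 17 higher, or 32 and 13 with median centring.

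Several members differed between the 6 rats. The range over the 6 arrays holds both the spread within a group and any difference between groups. The median range over the 6 arrays was 0.71 log2 units for the members and 0.41 for all genes tested. A range of at least 2 log2 units was found for 3 of 45 members (6.67%), against 2.65% of all genes. These 3 were Ugt2b, Sult2a2 and Sult2a6. Within the CO2/O2 and isoflurane groups the SDs were 2.98 and 3.10 for Ugt2b. They were 2.30 and 0.82 for Sult2a2, and 1.75 and 0.80 for Sult2a6. Sult2a2 was well above background on 4 of the 6 arrays and passed the filter only through the CO2/O2 group. Its range and SDs therefore rest in part on signal at background. The 95% confidence interval lay within 2-fold in either direction for 33 of 45 members (73.3%), against 90.5% of all genes, so for the other 12 a 2-fold difference was not bounded by these 6 arrays.

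**Figure D2:**
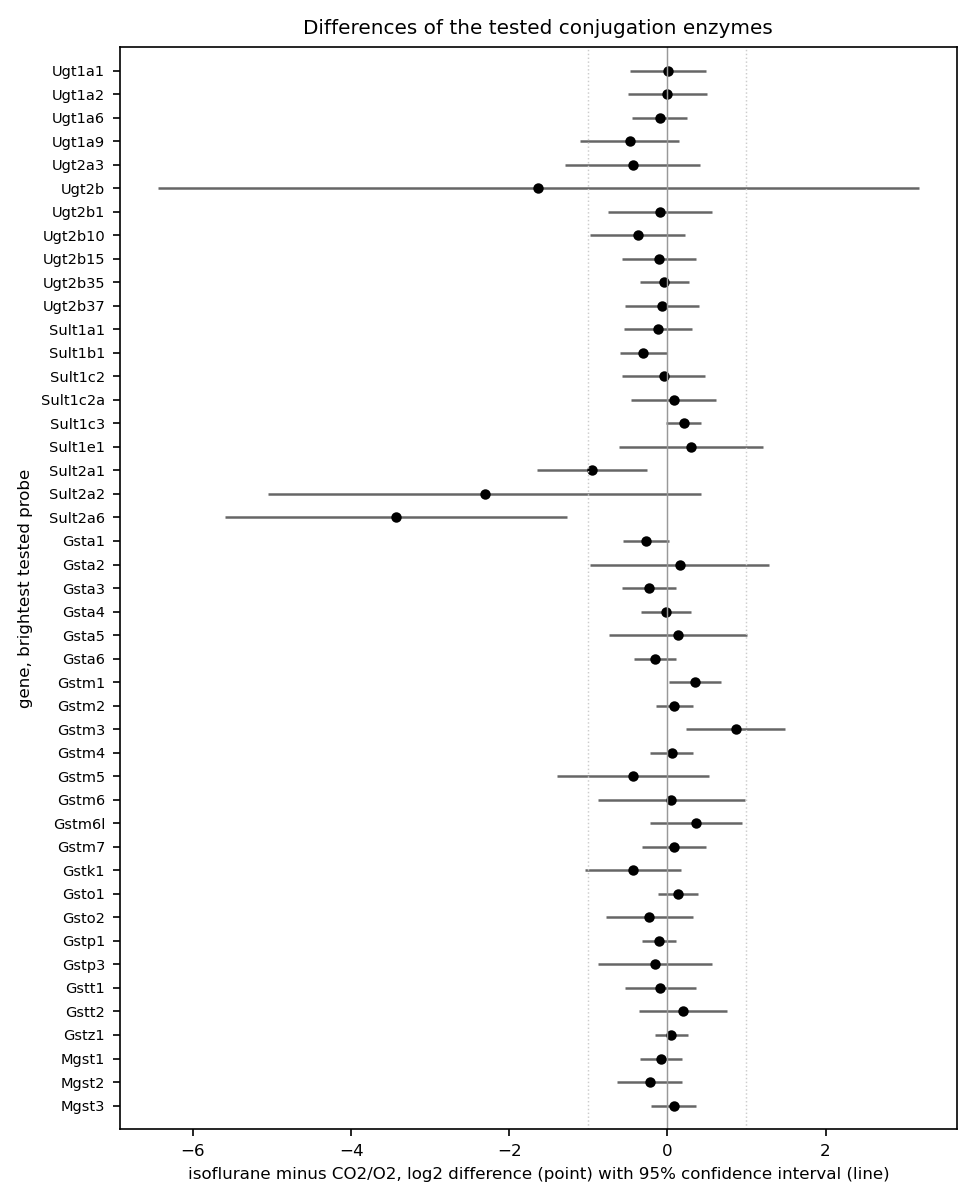
Isoflurane minus CO2/O2 difference (log2, horizontal axis) with its 95% confidence interval for each of the 45 tested genes, 3 rats per group; dotted lines mark 2-fold. Most points lie close to 0, and the intervals of Ugt2b (-6.45 to 3.18), Sult2a2 (-5.05 to 0.42) and Sult2a6 (-5.59 to -1.27) are the widest.

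Promoters of the Ugt2b and Sult2a paralogs are shown because the results turn on these genes. Sequences are the 250 bases before each start from RefSeq (GRCr8), 5′ to 3′ in the direction of the gene; of the 52 genes, 46 had an entry. In the Ugt2b set, capitals mark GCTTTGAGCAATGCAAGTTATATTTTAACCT, the longest run shared by Ugt2b, Ugt2b15, Ugt2b35 and Ugt2b37, so its presence in these 4 is by choice. On either strand it occurred in 5 of 33469 promoter windows (0.0149%), which reach 50 bases past the start.
Ugt2b promoter (chr14:20985199-20985448, plus strand): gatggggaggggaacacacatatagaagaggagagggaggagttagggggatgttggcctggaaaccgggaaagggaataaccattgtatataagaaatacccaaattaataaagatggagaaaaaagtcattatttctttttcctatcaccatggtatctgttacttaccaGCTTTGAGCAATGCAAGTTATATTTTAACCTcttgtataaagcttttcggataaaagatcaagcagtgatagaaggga
Ugt2b15 promoter (chr14:21122616-21122865, plus strand): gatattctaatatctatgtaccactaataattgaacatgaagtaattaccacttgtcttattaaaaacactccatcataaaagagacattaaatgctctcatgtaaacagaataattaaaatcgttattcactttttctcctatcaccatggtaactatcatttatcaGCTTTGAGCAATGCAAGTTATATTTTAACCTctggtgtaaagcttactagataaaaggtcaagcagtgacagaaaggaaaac
Ugt2b1 promoter (chr14:21378632-21378881, plus strand): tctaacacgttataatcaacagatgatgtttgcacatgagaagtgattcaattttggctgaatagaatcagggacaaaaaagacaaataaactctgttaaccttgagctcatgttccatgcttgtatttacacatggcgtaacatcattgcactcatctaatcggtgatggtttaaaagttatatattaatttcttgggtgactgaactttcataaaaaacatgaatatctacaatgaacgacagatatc
The run began 78 bases before the start in Ugt2b and 82 in Ugt2b15, and was not found in the Ugt2b1 window. Over the whole windows Ugt2b was 65.2% identical to Ugt2b15 and 48.5% identical to Ugt2b1. A match is only a description of the letters.

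Ugt2b, which conjugates androgens such as androsterone, was on in 3 rats and low or off in the other 3, in both groups. Probe A_64_P117003 read -4.28, 7.96 and 7.16 under CO2/O2 (rats 1 to 3) and -4.04, 7.86 and -4.28 under isoflurane. Probe A_44_P437096 read -6.65, 2.39 and 1.65, then -6.95, 2.67 and -6.43. Its 3 low values were not well above background. CO2/O2 rats 2 and 3 and isoflurane rat 2 were high on both probes, and the groups overlapped.

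The remaining Ugt2b probe, A_44_P426047, gave the same 3 high rats with a smaller gap, at 2.62, 8.14 and 7.32 under CO2/O2 and 2.74, 7.97 and 2.46 under isoflurane. Its difference was -1.63 ± 1.99 (SE, n = 3 per group; limma adjusted p = 0.873), from -3.42 without isoflurane rat 2 to -0.58 without CO2/O2 rat 2, and -3.28 with slide row blocked. Probe A_64_P117003 gave -3.77 ± 4.50 (limma adjusted p = 0.871). It passed the filter only through the CO2/O2 group, with 3 of 3 CO2/O2 and 2 of 3 isoflurane values well above background. The highest rat exceeded the lowest by 12.2 log2 units on probe A_64_P117003 and 5.67 on A_44_P426047. On A_64_P117003 the 3 low values lie near the lowest signal well above background on the same arrays. That signal was -4.67 for CO2/O2 rat 1 and -5.00 and -4.42 for isoflurane rats 1 and 3. The 12.2 is therefore limited by background. On A_44_P437096 the low values are at background and give no size. The 3 rats of each state were seen by their values and are not groups of the study.

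The paralogs Ugt2b15, Ugt2b37, Ugt2b35 and Ugt2b1 were above background in every rat, with ranges of 0.33 to 1.00 log2 units over their probes. Ugt2b15, an androgen-conjugating paralog, read 7.94, 8.51 and 8.20 under CO2/O2 and 7.95, 8.42 and 7.97 under isoflurane. Its other probe read 6.07, 6.94 and 6.48, then 6.03, 7.04 and 6.09. The 3 rats with high Ugt2b were the highest 3 on both Ugt2b15 probes.

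Ugt2b37 read 6.75, 7.18 and 6.75, then 6.75, 7.15 and 6.57, and Ugt2b35 read 6.97, 7.14 and 6.94, then 6.84, 7.21 and 6.87. CO2/O2 rat 2 and isoflurane rat 2 were highest on both. Ugt2b1 read 5.06, 5.05 and 4.45, then 4.34, 5.23 and 4.71, without that order. Signal shared between probes of such close paralogs was not tested.

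**Figure D3:**
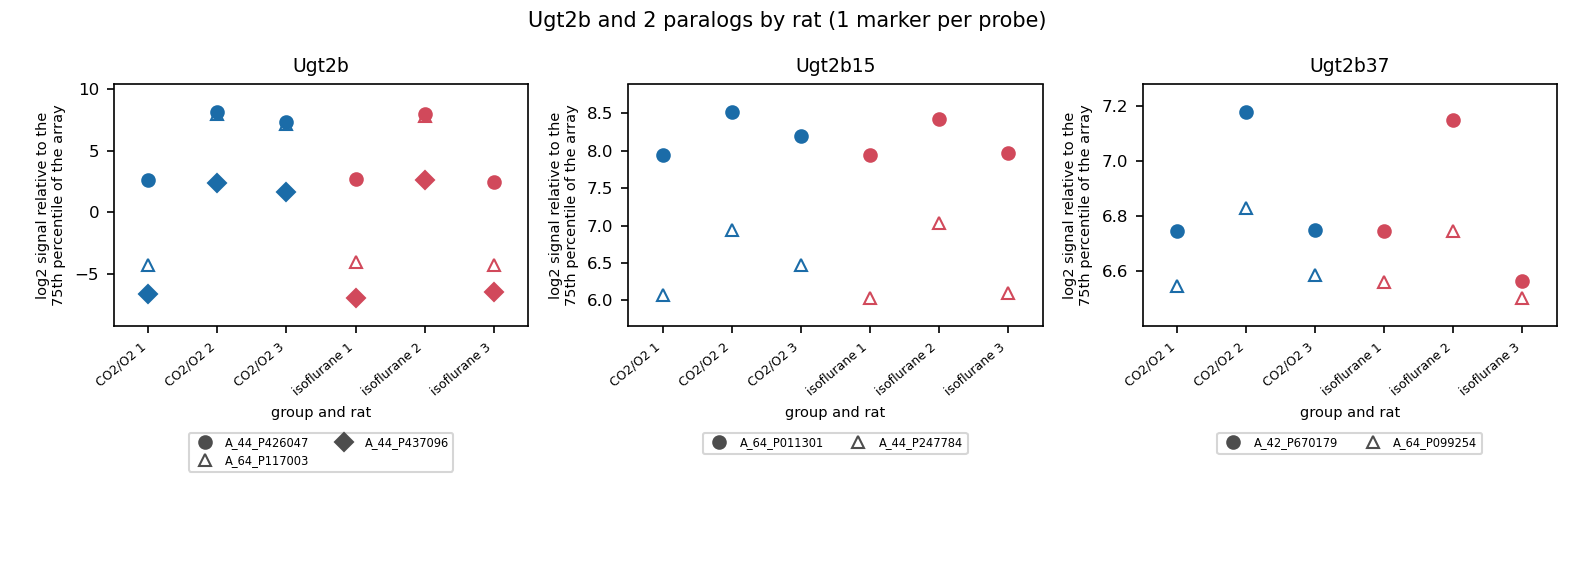
Log2 signal relative to the 75th percentile of the array for each probe of Ugt2b, Ugt2b15 and Ugt2b37 in each rat (1 marker shape per probe, blue CO2/O2, red isoflurane; the vertical scales differ). All 3 Ugt2b probes are high in CO2/O2 rats 2 and 3 and isoflurane rat 2, while Ugt2b15 stays between 7.94 and 8.51 on its brighter probe.

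All 7 tested Ugt2 genes had negative differences, from -1.63 to -0.04, also under each other scaling, and at the brightest probes none had an unadjusted p under 0.05. Ugt2a3 read 2.66, 2.67 and 2.38 under CO2/O2 and 1.63, 2.97 and 1.79 under isoflurane, a difference of -0.44 ± 0.35 (SE), from -0.86 without isoflurane rat 2 to -0.19 without isoflurane rat 1. Its other probe gave -0.73 ± 0.26 (limma unadjusted p = 0.0285, adjusted p = 0.620). At the brighter probe isoflurane rat 2 was the highest of the 6, so the groups overlapped. Ugt2b10 had -0.38 ± 0.25, from -0.65 without CO2/O2 rat 3 to -0.17 without CO2/O2 rat 1. Ugt2b7 was dim, above background on 2 arrays of each group, and was not tested.

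The Ugt1 genes, whose transcripts share their 3′ exons, differed little between groups. Ugt1a1, the bilirubin-conjugating enzyme, read 3.11, 3.44 and 3.10 under CO2/O2 and 3.19, 2.88 and 3.59 under isoflurane, a difference of 0.01 ± 0.20 (SE). Ugt1a6, which conjugates planar phenols, had -0.10 ± 0.15 and Ugt1a2 had -0.00017 ± 0.21. Ugt1a9 had -0.48 ± 0.26, which was 0.05 with slide row blocked. Of the 7 Ugt1 probes, 5 were highest in isoflurane rat 3 and lowest in isoflurane rat 2, so on these probes both extremes lay within the isoflurane group.

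The Sult2a genes encode hydroxysteroid sulfotransferases, which sulfate bile acids and steroids such as DHEA. In their promoters, capitals mark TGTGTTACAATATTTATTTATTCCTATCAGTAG, the longest run shared by all 3, and GTTAAT, a half-site of HNF1, a liver transcription factor. The 2 do not overlap. Searched on both strands, the shared run was in 5 of 33469 windows (0.0149%) and GTTAAT in 7.45%.
Sult2a6 promoter (chr1:84097809-84098058, minus strand): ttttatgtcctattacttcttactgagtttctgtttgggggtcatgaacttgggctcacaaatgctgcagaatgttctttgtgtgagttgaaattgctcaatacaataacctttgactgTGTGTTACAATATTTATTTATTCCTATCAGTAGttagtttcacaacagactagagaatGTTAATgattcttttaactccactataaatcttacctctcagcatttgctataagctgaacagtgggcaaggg
Sult2a1 promoter (chr1:84638948-84639197, minus strand): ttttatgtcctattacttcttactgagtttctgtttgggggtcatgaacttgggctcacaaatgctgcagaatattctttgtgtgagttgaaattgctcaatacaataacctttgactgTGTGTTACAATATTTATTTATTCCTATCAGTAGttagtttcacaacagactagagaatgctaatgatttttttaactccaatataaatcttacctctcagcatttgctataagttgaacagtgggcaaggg
Sult2a2 promoter (chr1:85104533-85104782, minus strand): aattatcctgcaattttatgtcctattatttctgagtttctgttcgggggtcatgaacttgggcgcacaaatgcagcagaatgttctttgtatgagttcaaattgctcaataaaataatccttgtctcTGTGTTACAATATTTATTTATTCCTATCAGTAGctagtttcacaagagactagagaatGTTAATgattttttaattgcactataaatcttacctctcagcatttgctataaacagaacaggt
The shared run began 131 bases before the start in Sult2a6 and Sult2a1 and 122 in Sult2a2. GTTAAT began 73 bases before the start in Sult2a6 and 64 in Sult2a2, and was not found in Sult2a1. The windows of Sult2a6 and Sult2a1 were 97.3% identical, and those of Sult2a6 and Sult2a2 80.8%.

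Sult2a6 had the largest difference among the brightest tested probes of the 45 genes. It read 7.35, 4.93 and 3.95 under CO2/O2 (rats 1 to 3) and 2.68, 2.16 and 1.11 under isoflurane. Every CO2/O2 rat exceeded every isoflurane rat, and CO2/O2 rat 1 stood well above the rest. The means were 5.41 ± 1.75 and 1.98 ± 0.80 (SD, n = 3). The difference was -3.43 ± 0.89 (SE; limma adjusted p = 0.567), which does not pass. Without CO2/O2 rat 1 the difference was -2.46, and with slide row blocked it was -2.73.

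Sult2a1 read 7.87, 7.65 and 7.02 under CO2/O2 and 6.95, 6.61 and 6.13 under isoflurane. The groups did not overlap, although CO2/O2 rat 3 and isoflurane rat 1 were close. The difference was -0.95 ± 0.29 (SE; limma adjusted p = 0.592), and -0.57 with slide row blocked.

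Sult2a2 read 0.30, -3.30 and -3.98, then -3.93, -4.46 and -5.54. Only CO2/O2 rat 1 was far above the floor, and 1 of the 3 isoflurane values was well above background. The fitted difference of -2.31 ± 1.13 (SE; limma adjusted p = 0.695) therefore rests in part on signal at background. Sult2a2 passed the filter only through the CO2/O2 group, where all 3 values were well above background.

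CO2/O2 rat 1 was the highest for all 3 Sult2a genes, and isoflurane rat 3 the lowest for Sult2a6 and Sult2a1. As for the Ugt2b paralogs, signal shared between the probes of these genes was not tested. For Sult2a6 and Sult2a1 the order of the 6 values was also the order of the arrays' places on the slide, and the part of place in the result was not tested beyond the row block. Markers of Kupffer cells, the liver's macrophages, lay the same way without a call: 11 of 11 had negative differences, with a median of -0.33 and none at background, and their summed linear signal was 211.5 to 259.9 times the 75th percentile in CO2/O2 rats and 171.0 to 202.4 in isoflurane rats. Of all genes tested, 52.9% had negative differences. Lymphocyte markers were lower in 5 of 5 (median -0.39, summed 3.55 to 4.03 against 2.26 to 3.44), erythroid markers in 4 of 4 (median -0.41, summed 139.9 to 190.4 against 100.7 to 135.9) and periportal hepatocyte markers in 5 of 5 (median -0.25, summed 308.0 to 435.8 against 271.0 to 377.4). Pericentral hepatocyte markers were lower in 5 of 6 (median -0.17, summed 71.0 to 95.2 against 45.2 to 74.2). Bile duct cell markers were lower in 4 of 5 (median -0.33), but summed 2.00 to 2.48 against 2.07 to 2.16. That median is the value of Krt7, well above background on only 1 of 3 isoflurane arrays. Endothelial markers were lower in 3 of 4 (median -0.07, summed 40.1 to 45.8 against 37.2 to 43.7). Stellate cell markers were lower in 2 of 5 (median 0.01, summed 6.61 to 7.57 against 6.38 to 7.24). With slide row blocked, all 5 periportal and all 4 endothelial markers were higher instead, and 4 of 6 pericentral markers stayed lower. Kupffer cell markers were then lower in 10 of 11, lymphocyte markers in 4 of 5 and erythroid markers in 3 of 4. Bile duct cell markers were lower in 4 of 5 and stellate cell markers in 1 of 5. The part of these cells in the result was not tested. In bulk tissue, fewer cells of a type and less RNA per cell cannot be told apart.

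**Figure D4:**
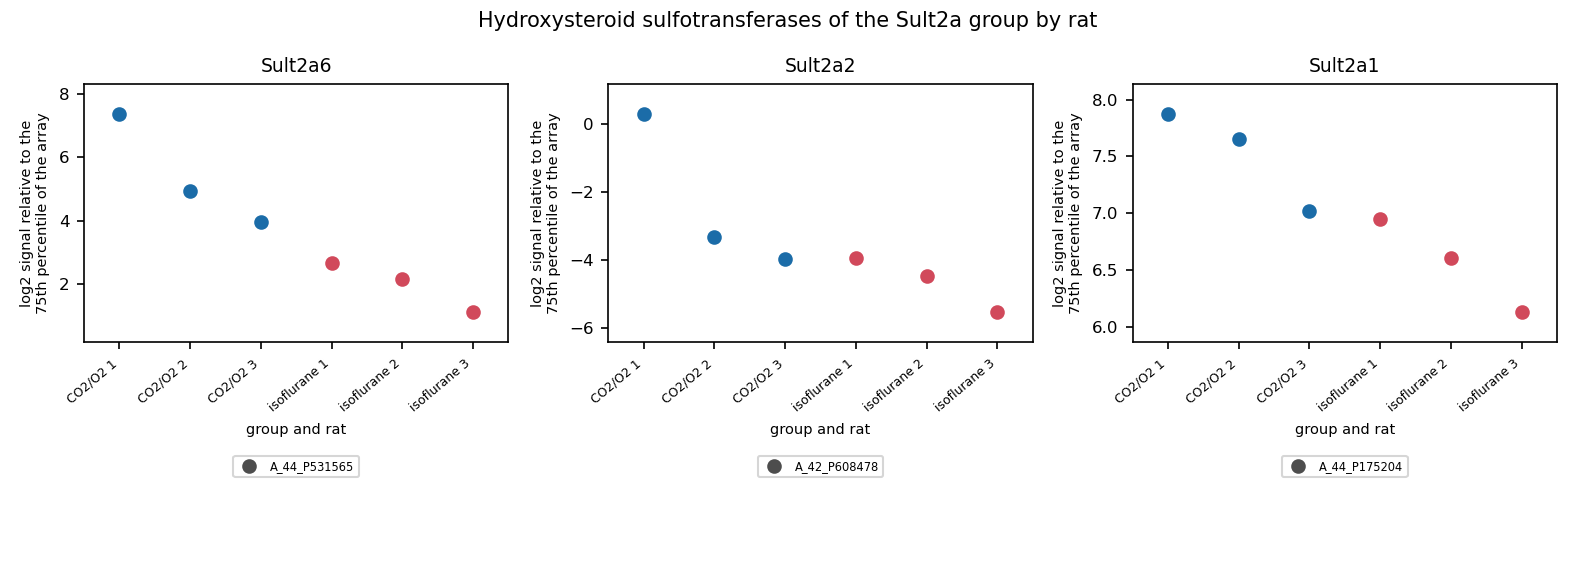
Log2 signal relative to the 75th percentile of the array for Sult2a6, Sult2a2 and Sult2a1 in each rat (blue CO2/O2, red isoflurane; the vertical scales differ). Sult2a6 runs from 7.35 in CO2/O2 rat 1 to 1.11 in isoflurane rat 3, and Sult2a1 from 7.87 to 6.13 over the same rats.

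By the measure of the highest Pearson correlation over the 6 arrays among named genes, St3gal3, Psmb10 and P2ry6 were most like Sult2a6. Psmb10 read 4.63, 4.38 and 4.26 under CO2/O2 and 4.06, 4.07 and 3.92 under isoflurane, a far narrower range. Syt3, Ttf2 and Arhgef3 were most like Sult2a2, and C18h18orf21, Mdfic and Sav1 were most like Ugt2b. Mdfic read 1.68, 2.02 and 2.08, then 1.65, 2.12 and 1.65. Over 6 arrays such likeness is a description only.

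Other sulfotransferases gave small differences. Sult1b1, which sulfates thyroid hormones and phenols, read 6.87, 6.98 and 7.02 under CO2/O2 and 6.42, 6.75 and 6.79 under isoflurane. The groups did not overlap, and the difference was -0.31 ± 0.12 (SE; limma adjusted p = 0.655), with -0.40 and -0.35 at its other probes and -0.54 with slide row blocked. Sult1c3 had 0.20 ± 0.092, also without overlap. Sult1a1, the phenol sulfotransferase, read 7.02, 6.69 and 7.34, then 6.90, 6.78 and 7.02, a difference of -0.12 ± 0.18.

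Sult2b1, a cholesterol sulfotransferase, was dim. Its probe A_44_P205980 read -5.18, -5.04 and -5.02 under CO2/O2 and -5.45, -3.42 and -3.44 under isoflurane, and was above background on 1 and 2 arrays. It was therefore not tested on all 6 arrays. Without isoflurane rat 1 it was tested, with a difference of 1.65 ± 0.099 (SE; limma adjusted p = 0.0373), and it was the only member called with any array left out. Only 1 of the 3 CO2/O2 values was above background, and the filter let the probe in only once its low isoflurane value was removed, so this call is not read as a result. Sult4a1 was above background on 1 array.

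The alpha class glutathione transferases were bright in every rat but varied within both groups. Gsta2 read 8.23, 7.96 and 6.88 under CO2/O2 and 7.09, 8.48 and 7.96 under isoflurane. Gsta5, near Gsta2 on the GRCr8 assembly, read 8.72, 8.48 and 7.66, then 7.84, 8.88 and 8.54. CO2/O2 rat 3 and isoflurane rat 1 were lowest for both genes, and the groups overlapped. Their differences were 0.15 ± 0.47 and 0.13 ± 0.36 (SE).

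Gsta1 read 8.26, 8.08 and 8.10 under CO2/O2 and 8.06, 7.89 and 7.69 under isoflurane. The groups did not overlap, although CO2/O2 rat 2 and isoflurane rat 1 were close. The difference was -0.27 ± 0.12 (SE; limma adjusted p = 0.673), and -0.094 with slide row blocked. Gsta3 had -0.23 ± 0.14 at its brightest probe and -0.26 at the next. The last Gsta3 probe, A_64_P035291, read 3.94, 2.21 and 1.93, then 1.89, 0.55 and 2.61, a range of 3.40 against 0.64 on the brightest probe. CO2/O2 rat 1 was highest and isoflurane rat 2 lowest on all 3 Gsta3 probes.

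Of the 8 mu class genes, 7 had positive differences and Gstm5 (-0.43 ± 0.40) a negative one, but 6 were positive with quantile normalization and 5 with median centring or slide row blocked. Gstm3 read -0.58, -0.17 and -0.90 under CO2/O2 and -0.14, 0.58 and 0.49 under isoflurane. The groups did not overlap, although CO2/O2 rat 2 and isoflurane rat 1 were close. The difference was 0.86 ± 0.26 (SE; limma adjusted p = 0.588), with 0.73 at its other probe and 0.41 with slide row blocked. At that other probe the groups overlapped slightly, at -0.33 in CO2/O2 rat 2 and -0.34 in isoflurane rat 1.

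Gstm1 read 7.16, 6.86 and 6.90 under CO2/O2 and 7.13, 7.52 and 7.34 under isoflurane, with a slight overlap. Its difference was 0.35 ± 0.14 (SE; limma adjusted p = 0.651), and 0.15 with slide row blocked. Gstm2 and Gstm7 had 0.09 ± 0.097 and 0.08 ± 0.17.

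**Figure D5:**
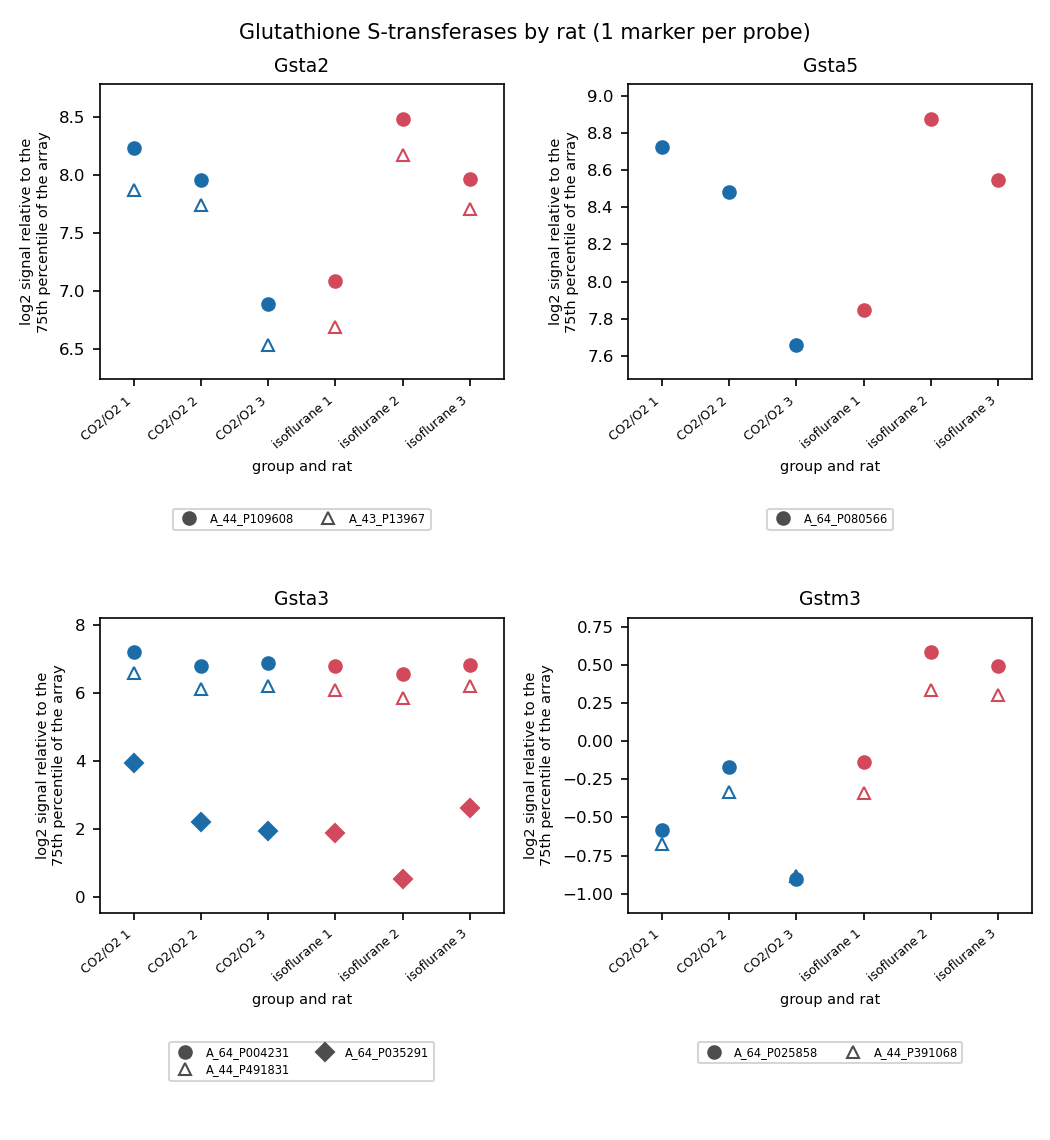
Log2 signal relative to the 75th percentile of the array for each probe of Gsta2, Gsta5, Gsta3 and Gstm3 in each rat (1 marker shape per probe, blue CO2/O2, red isoflurane; the vertical scales differ). CO2/O2 rat 3 and isoflurane rat 1 are lowest for Gsta2 and Gsta5, and both Gstm3 probes are highest in isoflurane rats 2 and 3.

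The remaining classes held the steadiest members. Gstz1, which isomerises maleylacetoacetate in tyrosine breakdown, read 7.04, 7.06 and 7.17 under CO2/O2 and 7.23, 7.08 and 7.11 under isoflurane, a range of 0.19. Gstp1 had -0.11 ± 0.091 and Gsto1 0.13 ± 0.10, which were 0.01 and -0.04 with slide row blocked. Gstp3 read 8.03, 7.98 and 7.68, then 8.06, 8.10 and 7.06, lowest in isoflurane rat 3. Gstk1, the kappa class enzyme, had -0.43 ± 0.25, with CO2/O2 rat 3 highest at 5.04. The microsomal enzymes Mgst1, Mgst2 and Mgst3 had -0.08 ± 0.11, -0.22 ± 0.17 and 0.08 ± 0.12.

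Probes of the same gene mostly gave differences of the same sign. Of 19 genes with more than 1 tested probe, 15 had differences of 1 sign, and in 16 the differences lay within 0.3 of each other. The median absolute difference of the members was 0.15, so probes of unrelated members could also lie that close. Probes of Ugt2b, Gsta3 and Sult1c2 lay further apart. The 4 with mixed signs were Gstp1, Sult1a1, Sult1c2 and Sult1c2a.

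Genes that supply or share the pathway gave no call either. Of 13 tested cofactor genes, 4 were lower and 9 higher (7 and 6 with median centring), led by the UDP-sugar transporter Slc35d1 (0.22 ± 0.10, but 0.03 and 0.05 at its other probes and 0.046 with slide row blocked) and the sulfide enzyme Sqor (-0.45 ± 0.25). Papss2, which makes PAPS, had 0.20 ± 0.14 and Gclc, of glutathione synthesis, 0.17 ± 0.12. None of the 13 had an unadjusted p under 0.05.

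Among 18 other conjugating enzymes, 8 were lower and 10 higher (11 and 7 with median centring). Of the 18, 3 had an unadjusted p under 0.05 by limma, against 7.58% of all genes. Acsm2, a medium-chain acyl-CoA synthetase of the glycine conjugation route, read 4.29, 4.83 and 3.86 under CO2/O2 and -0.07, -0.40 and 3.06 under isoflurane. Its difference was -3.46 ± 0.91 (SE; limma adjusted p = 0.569), with isoflurane rat 3 near the CO2/O2 rats. Acsm3 had 1.63 ± 0.51, Nat2, an arylamine acetyltransferase, -0.36 ± 0.12, and Acsm5 -3.05 ± 1.26 with 0.30 and -1.66 at its other probes.

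Of 13 tested genes of export and deconjugation, 6 were lower and 7 higher. Arsb, a lysosomal sulfatase, had -0.39 ± 0.10, and Abcg2, an exporter of conjugates, 0.58 ± 0.21 (SE; limma adjusted p = 0.569 and 0.644). Of 17 regulators, 9 were lower and 8 higher. Ppara, the fatty acid receptor, read 0.85, 1.18 and 1.60 under CO2/O2 and 1.75, 1.80 and 1.97 under isoflurane, a difference of 0.63 ± 0.20 without overlap (limma adjusted p = 0.597). For both Ppara and Abcg2 the values rose in the order of the arrays' places on the slide. With slide row blocked their differences were 0.54 and 0.32, and the part of place was not tested further. Nr1h4, the bile acid receptor, had -0.36 ± 0.16.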

How the data were processed

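Per the labels' protocols, 0.2 ug of liver RNA per rat was amplified and labelled with Cy3. Spots were read with Agilent Feature Extraction 10.7, per the submitters' processing notes. The deposited intensity values had been background-corrected by that software, with no scaling between arrays, per the file headers. The deposited value table holds a ratio: the processed intensity divided by 1 number per array close to its 75th percentile, with no centring of probes. No source used here says how the authors chose that number. Column medians were 0.0864, 0.0881 and 0.0868 (CO2/O2), then 0.0917, 0.0900 and 0.0905 (isoflurane).

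Here the 75th percentile of each array, over 61657 probes, was subtracted from log2 processed intensity, leaving out 177 outlier-marked spots. Probes well above background on all 3 arrays of a group (34637) were fitted with limma 3.58.1 (R 4.3.3; lmFit and eBayes), isoflurane minus CO2/O2, with Benjamini-Hochberg adjustment over all of them; adjusted p 0.05 was the threshold. The script was tested on simulated data. Accessions of 27460 probes matched RefSeq genes (GRCr8), used for names, neighbours and promoters; the array design uses an older build. Each gene took its brightest tested probe. The members and lists were chosen with earlier results of these data known. Members were named by largest moderated t or brightest signal in each family, on-off signal, or largest t in each list; others are given as counts, apart from Sult6b1, Sult1d1, Gstt4, Ugt2a1, Ugt2b1, Sult1c2 and Sult1c2a, which were added once values were known. The alternatives were normexp (on median signal), quantile, median centring, the value table, dim-probe filters, outlier spots kept, eBayes trend and robust, replicate and slide row blocks, mean of probes, unadjusted p and leaving out each array.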

Additional observations from a re-analysis of the deposited data

How the results depend on the processing

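The count of member genes past the threshold, 0, was 5 at an unadjusted p, and leaving out 1 array gave 0 to 1. For member probes it was 9, and 0 to 1. The 1 call was Sult2b1 without isoflurane replicate 1, against CO2/O2 values mostly at background. Among all probes 3 passed. That number was 5 under normexp and 5 under eBayes trend and robust, 1 when dim probes were kept, and 2616 at an unadjusted p. Leaving out 1 array gave 1 to 20 probes: 20 without CO2/O2 replicate 3, 17 and 5 without isoflurane replicates 1 and 2, and 1 without either CO2/O2 replicate 1 or isoflurane replicate 3.

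Whether the replicate numbers pair the rats cannot be told from these values. Deviations of same-numbered rats from their group means correlated at 0.11, 0.02 and 0.06 over probes. Those of differently numbered rats correlated at -0.094 to 0.037. With 3 rats per group the deviations within a group are tied to each other, so such correlations cannot decide it. With the replicate block the count of probes was 0, and no member was called.

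The median difference of the members, -0.08, was -0.14 with median centring, -0.028 when dim probes were kept and -0.12 with the slide row block, in which isoflurane replicate 1 is the only isoflurane rat compared. Leaving out 1 array gave -0.14 (CO2/O2 replicate 3) to -0.0066 (CO2/O2 replicate 2), with -0.02 for isoflurane replicate 1.

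Of 687 pairs of a named gene and an alternative, 664 kept their direction and side of the threshold and 23 had the opposite sign, over 12 of 43 genes. With the row block these were Ugt1a9 (0.050), Ugt1a1 (-0.021), Gsta5 (-0.44), Gsto1 (-0.036), Gstp1 (0.010), Mgst1 (0.052), Sqor (0.084) and Gclc (-0.069). Ugt1a1 was -0.0022 with normexp and -0.052 with median centring, and Ugt1a2 was 0.0032 with quantile normalization. Leaving out 1 array gave -0.18 to 0.18 for Ugt1a1, -0.19 to 0.17 for Ugt1a2, -0.26 to 0.043 for Ugt2b15, -0.18 to 0.42 for Gsta5, -0.23 to 0.017 for Ugt1a6 and -0.43 to 0.020 for Gsto2. The cause was not tested. Members near background, such as Sult2a2 and Sult2b1, are limited by signal, and 3 rats per group limit all differences.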
